A study of Mus musculus with 6 samples.

Results

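The genes described here encode the calcium pumps of the sarcoplasmic reticulum, their small inhibitors and the calcium-binding proteins of its lumen. They are Sln, Pln, Atp2a1, Atp2a2, Casq1, Casq2 and Srl, 7 of the 18193 genes with a probe set of a single symbol, and were read by 15 of the 45101 probe sets on the array. They were chosen by function and on their signals in wild type against deficient muscle, so their values across the groups are given as a description and no p-value is given for them. RNA was measured in all hind limb skeletal muscle of 6 mice, 3 wild type and 3 deficient in the laminin alpha 2 chain (called deficient below), all 4 weeks old and each read on 1 Affymetrix array. The labels name no allele, strain or treatment and state that the replicates were biological. The laminin alpha 2 chain is part of the laminin that ties muscle fibres to their basement membrane.

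The sarcoplasmic reticulum releases calcium to start contraction, and calcium ATPases pump it back so that the fibre can relax. Atp2a1 encodes the pump of fast fibres, and Atp2a2 encodes the pump of slow fibres and heart. Sarcolipin and phospholamban are short membrane peptides that bind the pump and slow its uptake of calcium, and sarcolipin also lets the pump use ATP without moving calcium, which releases heat. The calsequestrins hold calcium inside the reticulum, with Casq1 as the main form of fast fibres and Casq2 as the form of heart and slow fibres.

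The deposited values are linear signals in array units, 1 per probe set and mouse. Levels are compared between mice for 1 probe set at a time and never between genes, because probe sets differ in brightness. A log2 difference is the deficient mean minus that of wild type after taking log2(signal + 16), with the standard error from limma's fit (n = 3 per group), and ratios are of the group mean signals. Whole muscle was read, so fewer cells of a type and less RNA per cell cannot be told apart.

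Skeletal muscle markers were bright in every library, with a summed signal over 8 genes of 84923 to 88896 in wild type and 66304 to 85612 in deficient muscle. Deficient replicate 1 had the lowest of these sums, and the other deficient libraries read 85612 and 81453. Of the 8 cardiomyocyte markers, 7 (Myh6, Nppa, Nppb, Myl7, Tnni3, Ryr2 and Nkx2-5) read between 0.9 and 59.5, and none was listed at 0. The other, Gja1, a gap junction gene that other cell types also express, read 681.2 to 1040.1 in wild type and 445.3 to 754.6 in deficient muscle. The 9 macrophage markers were all higher in deficient muscle, with sums of 1820.2 to 2769 in wild type and 3325.4 to 7990.3 in deficient muscle, and 1 of them, Mpeg1, was called (limma adjusted p = 0.0023). The 6 brown adipocyte markers summed to 5485.7 to 7303.9 in wild type and 2832.7 to 3307.9 in deficient muscle, with 2 of 6 higher. Of these, Ucp1, Cox7a1 and Cidea were called lower and Dio2 higher, and the calls of Cox7a1, Cidea and Dio2 were lost without 2, 4 and 5 of the 6 libraries in turn. Cox7a1 alone made up most of each brown adipocyte sum, at 4367.4 to 4474.9 in wild type and 2222.6 to 2519 in deficient muscle. The sums thus mostly follow this 1 gene and are not read as an amount of brown adipocytes. The 8 hair follicle markers summed to 2343.7, 937.5 and 153.5 in wild type replicates 1, 2 and 3 and to between 67.4 and 107.4 in deficient muscle, and 1 of them, Tchh, was called lower, a call lost without any 1 library but wild type replicate 3. Sums of the 8 smooth muscle markers (6450.6 to 8137.2 and 7273.9 to 8977, with 3 of 8 higher) and of the 7 fibroblast markers (19922 to 33284 and 26223 to 35329, with 6 of 7 higher) overlapped between the groups. Des, which is also on the skeletal muscle list, was the largest part of each smooth muscle sum. It read 2783 to 4210.8 in wild type and 4253.9 to 5154.1 in deficient muscle. For actin, the control probe sets at the 5′ end read 1.04 to 1.15 times those at the 3′ end in wild type and 0.51 to 0.819 times in deficient muscle, while for Gapdh the groups overlapped. Eif2s3y, a Y-linked gene, was above a signal of 100 in replicates 1 and 2 of each group and below it in replicate 3 of each. The part of these markers and of RNA quality in the values below was not tested.

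Sln differed most between the groups, at 27.7 times the wild type mean in deficient muscle, followed by Casq2 at 3.05 times and Atp2a2 at 1.83 times. Casq1 was lower at 0.756 times the wild type mean. Pln, Atp2a1 and Srl had overlapping groups. Read by the brightest probe set of each gene, the groups did not overlap for 4 of the 7 genes, 3 higher and 1 lower in deficient muscle, where 24.7% of the 13113 genes tested did not overlap. At an adjusted p under 0.05 in limma, 2 of the 7 were called, Sln and Casq2, where 2.76% of all genes were. The median log2 difference was 0.25 over the 7 genes and 0.02 over all genes tested. The set was built knowing this contrast, so these counts are no test of it and nothing is read from them. Casq2 was not called without wild type replicate 1, wild type replicate 2 or deficient replicate 2, which left 1 of the 7, and 14 of the 15 probe sets passed the filter on dim signals.

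**Figure D1:**
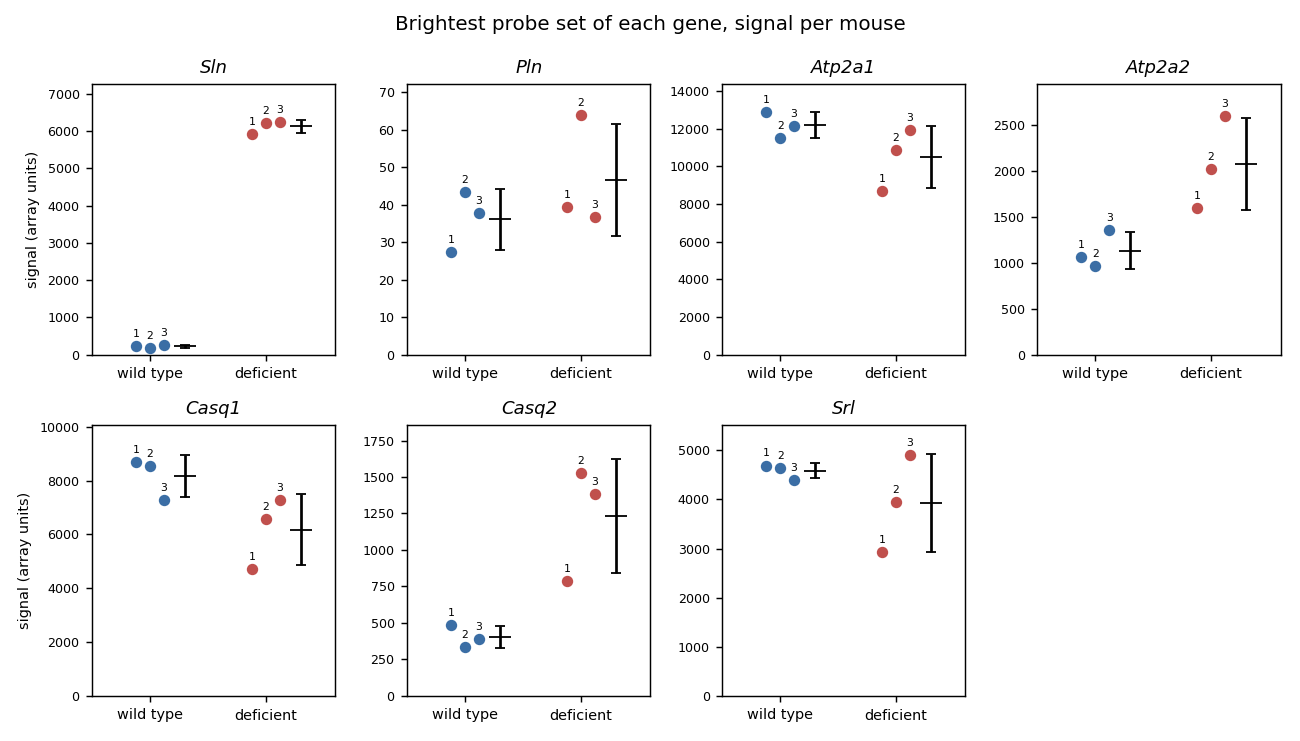
Signal of the brightest probe set of each of the 7 genes (vertical axis, linear array units from 0, a different scale in each panel) in the 3 wild type and 3 deficient mice, numbered by replicate; bars give the mean and SD. The deficient mice lie above every wild type mouse for Sln, Atp2a2 and Casq2 and below every one for Casq1, while the groups overlap for Pln, Atp2a1 and Srl.

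Among the inhibitors, the bright probe set of Sln (1420884_at) read 236.9, 176.5 and 249.6 in wild type replicates 1, 2 and 3 and 5928.5, 6223.1 and 6242.2 in the deficient ones. Every deficient mouse lay far above every wild type mouse, and the log2 difference of 4.71 (SE 0.171) ranked 1st of 13113 genes from the top. The deficient mice were also close to each other, with an SD of 0.042 on the log2 scale, and 1.82% of all genes tested had a smaller SD in that group. In the wild type mice the SD of Sln was 0.25, and 56.7% of genes had a smaller one.

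The other probe set of Sln (1420883_at) was dim, at 3.1, 6.3 and 6.5 in wild type and 25.3, 26.2 and 57.2 in deficient muscle. Its groups did not overlap either, with a log2 difference of 1.24 (SE 0.289). Its wild type signals lay below the 13.9 used as the filter on dim probe sets, so the size of its difference is not set against that of the bright one. Probe set 1420883_at passed the filter through its deficient signals, so its direction is not taken as support for that of the bright one either.

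Pln, which encodes phospholamban, was dim on all 3 of its probe sets, between 17.1 and 63.9 in every mouse. The brightest (1460332_at) read 27.3, 43.4 and 37.7 in wild type and 39.5, 63.9 and 36.7 in deficient muscle, a log2 difference of 0.25 (SE 0.247). The second (1423359_at) read 27.7, 42.5 and 43 in wild type and 52.4, 29.5 and 17.1 in deficient muscle, a log2 difference of -0.18 (SE 0.326). The groups overlapped on all 3 probe sets, whose differences had both signs, so these arrays gave no separation of the groups for phospholamban.

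Myoregulin, another small peptide that inhibits the pump in skeletal muscle, is encoded by Mrln, which is no member of the set and was listed among the other regulators by function. Mrln read 1223, 916.5 and 828.7 in wild type and 243.8, 343.3 and 466.1 in deficient muscle. It fell from 989.4 ± 207 to 351.1 ± 111 (SD, n = 3 per group), a log2 difference of -1.48, lower in 3 of 3 deficient mice than in any wild type mouse (limma adjusted p = 0.02). The call was lost without wild type replicate 1 (adjusted p = 0.102), wild type replicate 2 (0.0732), deficient replicate 1 (0.0523) or deficient replicate 2 (0.0832), and the alternatives tried gave 0.00504 to 0.413. Its 1 probe set was the only one among the 4 other regulators listed, and Strit1, Erln and Arln had no probe set with a single symbol. Relative to the wild type mean, Sln shifted against Mrln within an array by 6.6, 6.2 and 5.78 on the log2 scale in the 3 deficient mice.

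**Figure D2:**
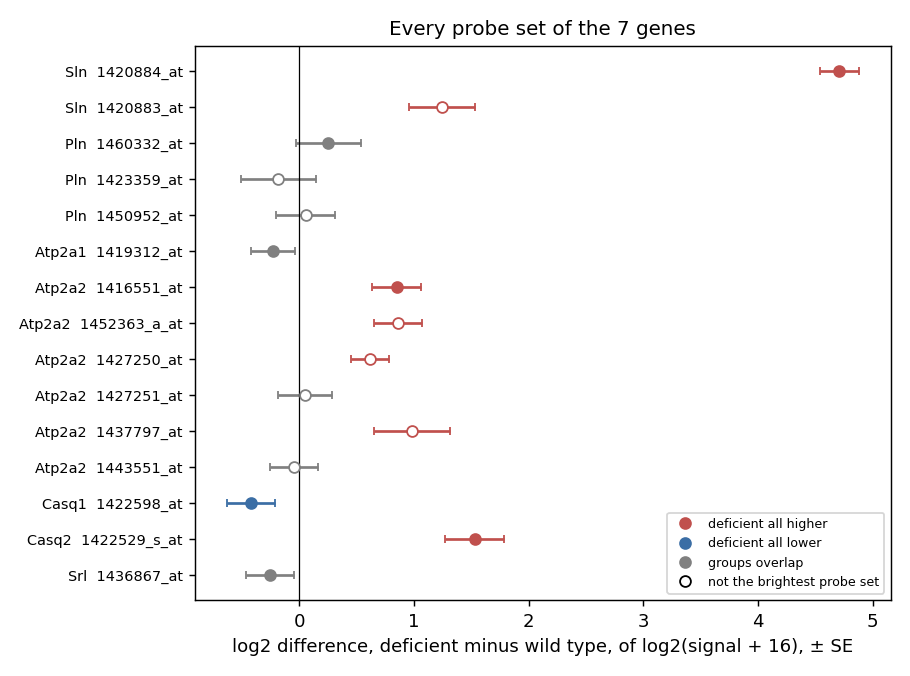
Log2 difference, deficient minus wild type, of log2(signal + 16) with its SE for each of the 15 probe sets, from a fit over all probe sets with 1 symbol and no filter. Filled circles mark the brightest probe set of each gene; colours show whether the 3 deficient mice were all higher, all lower or overlapped with the 3 wild type mice. Both Sln probe sets and 4 of 6 Atp2a2 probe sets lie to the right with groups that do not overlap, and the 3 Pln probe sets straddle 0.

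Among the pumps, Atp2a1, the fast fibre pump, read 12883, 11523 and 12168 in wild type and 8706, 10867 and 11943 in deficient muscle. Deficient replicate 3 lay among the wild type mice and the other deficient mice lay below all of them, with a log2 difference of -0.23 (SE 0.136). Without deficient replicate 1 it was -0.10.

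Atp2a2, the slow fibre pump, read 1069.7, 967.4 and 1359.7 in wild type and 1603.1, 2020.3 and 2603.2 in deficient muscle on its brightest probe set (1416551_at). All deficient mice were above all wild type mice, with means of 1132.3 ± 203 and 2075.5 ± 502 (SD) and a log2 difference of 0.85 (SE 0.211). Leaving out wild type replicates 1 and 2, which had the highest hair follicle sums and were also the wild type mice with Eif2s3y above 100, gave 0.58.

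Of the 6 probe sets of Atp2a2, 4 had all deficient mice higher and 2 overlapped. Probe set 1452363_a_at read 540.8, 518.9 and 748.3 in wild type and 989.7, 963.3 and 1375.1 in deficient muscle, a log2 difference of 0.86 (SE 0.206). Probe set 1427250_at read 498.5, 454.3 and 382.8 against 757.8, 670 and 637.7, a log2 difference of 0.62 (SE 0.167). The order of the mice within a group was not the same on both: wild type replicate 3 was the highest of its group on the former and the lowest on the latter. The dimmer 1437797_at read 1.3, 12.2 and 18.6 in wild type and 23.9, 46.9 and 36.1 in deficient muscle, a log2 difference of 0.98 (SE 0.328). Its wild type mean of 10.7 lay below the filter signal of 13.9, so it passed the filter through its deficient signals. Neither the size nor the direction of its difference is taken as support for the brighter probe sets. The overlapping probe sets were 1427251_at, at 57.8 to 72.8 in wild type and 55.9 to 81.9 in deficient muscle, and 1443551_at, at 1.9 to 12.7 and 3.7 to 7.5, which did not pass the filter. Over all 15 member probe sets the groups did not overlap on 8, 7 higher and 1 lower, where 18.4% of the 34945 probe sets with 1 symbol did not overlap.

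Set against each other within each array, the pumps shifted toward Atp2a2 in every deficient mouse. Relative to the wild type mean, the log2 difference between Atp2a2 and Atp2a1 was -0.15, -0.13 and 0.28 in wild type and 0.99, 1.01 and 1.23 in deficient muscle. The mean shift of 1.08 corresponds to a ratio 2.11 times that of wild type muscle. Deficient replicate 1, the lowest of its group for both pumps, had a shift of 0.99. A ratio within an array shows unequal change of the genes and not which of them changed.

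Of the calsequestrins, Casq1 read 8672, 8557 and 7284 in wild type and 4706, 6557 and 7265 in deficient muscle, so that deficient replicate 3 lay just below the lowest wild type mouse. The log2 difference was -0.42 (SE 0.172), and -0.24 without deficient replicate 1. Casq2 read 484.1, 335.3 and 392.7 in wild type and 788.9, 1526.4 and 1382.8 in deficient muscle, all above the wild type mice, with a log2 difference of 1.53 (SE 0.26). Without deficient replicate 1, the lowest of the 3, it was 1.82. Casq2 varied most among the deficient mice of all 7 genes, with an SD of 0.506 on the log2 scale, and 83.5% of all genes tested had a smaller one.

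The log2 difference between Casq2 and Casq1 within an array was 0.18, -0.31 and 0.14 relative to the wild type mean in wild type and 1.74, 2.20 and 1.92 in deficient muscle. The mean shift was 1.95, or a ratio 3.88 times that of wild type muscle, and no deficient mouse overlapped with a wild type mouse.

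**Figure D3:**
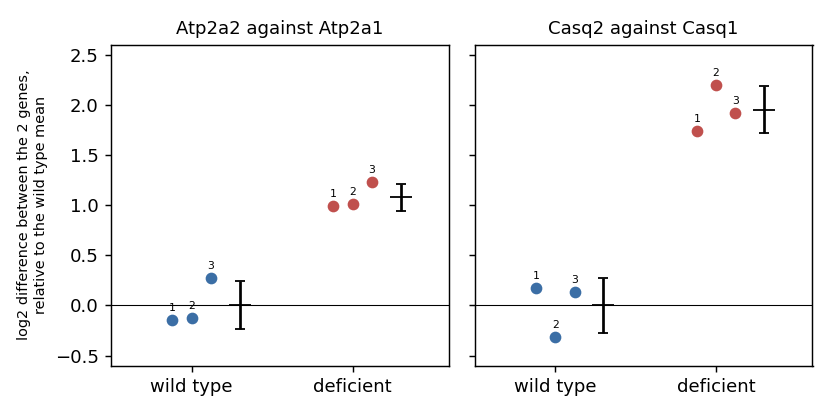
Difference between the log2 values of Atp2a2 and Atp2a1 (left) and of Casq2 and Casq1 (right) within each array, relative to the wild type mean, which is set to 0; points are mice numbered by replicate and bars give the mean and SD. The deficient mice sit between 0.99 and 1.23 on the left and between 1.74 and 2.20 on the right, above all wild type mice.

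Promoters are shown for this pair of calsequestrin genes because their log2 differences had opposite signs. The 250 bases before the RefSeq start (GRCm38.p6) are printed 5′ to 3′ on the gene's strand, at chr1:172219896-172220145 (minus strand) for Casq1 and chr3:102086165-102086414 (plus strand) for Casq2. Capitals mark matches to the E-box CANNTG, the motif of the myogenic bHLH factors, and to the MEF2 motif, searched on both strands.
Casq1: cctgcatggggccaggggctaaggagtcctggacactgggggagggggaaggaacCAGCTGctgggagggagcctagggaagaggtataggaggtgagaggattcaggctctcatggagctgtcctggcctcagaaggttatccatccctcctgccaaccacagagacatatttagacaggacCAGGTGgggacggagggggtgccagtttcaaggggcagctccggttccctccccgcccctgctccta
Casq2: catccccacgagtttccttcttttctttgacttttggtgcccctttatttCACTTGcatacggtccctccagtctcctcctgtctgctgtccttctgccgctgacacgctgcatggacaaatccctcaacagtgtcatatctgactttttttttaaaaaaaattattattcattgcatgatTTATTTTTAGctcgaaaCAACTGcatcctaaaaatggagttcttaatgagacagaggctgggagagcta
Each promoter held 2 E-boxes, a motif found in 66% of 27025 promoters of the same length. That of Casq2 also held 1 MEF2 match, 69 to 60 bases before the start, TTATTTTTAG, a motif found in 3.01% of promoters and not matched by these letters in the same window of Casq1, Atp2a1 or Pln. The SRF CArG box, found in 1.4% of promoters, matched in none of the 4. Atp2a1 and Pln held 1 E-box each. A match is a description of the letters only. RefSeq promoters were matched for 4 of the 7 genes.

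Srl encodes sarcalumenin, a calcium-binding glycoprotein of the lumen. It read 4690, 4645 and 4404 in wild type and 2923, 3955 and 4901 in deficient muscle. The wild type mice were close together, with an SD of 0.049 on the log2 scale against 0.373 in deficient muscle, and deficient replicate 3 was the highest of all 6 mice. The log2 difference was -0.25 (SE 0.184), and -0.06 without deficient replicate 1.

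Deficient replicate 1 was the lowest of the 3 deficient mice for 6 of the 7 genes, all but Pln, whether the gene was higher or lower than in wild type muscle. Over all genes tested it was the lowest of the 3 in 35.9%. It was also the lowest of them for every fast fibre contractile gene tested and for every slow fibre one but Myoz2 (lists given below). The pattern was thus not particular to the members. This comparison within the deficient group does not use the contrast by which the members were chosen, and all these genes share the same arrays. Deficient replicate 1 also had the lowest array median of all libraries, 20 signal units against 21.5 to 26.1, the lowest summed skeletal muscle markers and the highest summed macrophage markers. Leaving it out moved the log2 differences of Atp2a1, Casq1 and Srl toward 0 and those of Atp2a2 and Casq2 away from 0, to 1.02 for Atp2a2, and left Sln at 4.73.

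With wild type replicates 1 and 2 left out, which leaves 1 wild type mouse, the log2 differences were 4.53 for Sln, 0.20 for Pln, -0.22 for Atp2a1, 0.58 for Atp2a2, -0.26 for Casq1, 1.56 for Casq2 and -0.20 for Srl. Each kept the sign it had with all libraries. The wild type mouse left was the one with Eif2s3y below 100, so hair follicle signal and Y-linked transcripts cannot be told apart here.

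The other genes of calcium handling were taken from 7 lists drawn up by function, none of which holds a member. Of 79 genes listed, 70 had a probe set with a single symbol and 65 were tested, of which 1 rose, 2 fell and 62 did not pass, a share of 4.62% called beside 2.76% of all genes. Their median log2 difference was -0.08. The 3 called genes were Atp2b1, Mrln and Stac3. At an unadjusted p under 0.05 in limma there were 22 of the 65. The share of all genes tested at that p is not given here, so nothing is read from this count or from those by list below. The count was 0 without wild type replicate 1, wild type replicate 2 or deficient replicate 1 (19, 15 and 17 genes at an unadjusted p under 0.05 in limma), 1 without deficient replicate 2 and 8 without deficient replicate 3.

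Among 5 other calcium ATPases tested, 1 rose, 0 fell and 4 did not pass. Atp2b1, a calcium pump of the plasma membrane, read 160.4, 182.5 and 192.1 in wild type and 345.2, 345.6 and 349.1 in deficient muscle, and all 3 of its probe sets had a positive difference. It rose by 0.90 on the log2 scale, higher in 3 of 3 deficient mice than in any wild type mouse (limma adjusted p = 0.029). The call was lost without each library but deficient replicate 3, where the adjusted p lay between 0.0625 (wild type replicate 3 left out) and 0.134 (wild type replicate 1 left out), and the alternatives tried gave 0.0083 to 0.512. Atp2a3, another gene of the reticulum pump family, had overlapping groups and a log2 difference of 0.15 (limma adjusted p = 0.787). The probe sets of Atp2b4 and Atp2c2 were below the filter.

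Of 16 other genes of the reticulum's lumen and membrane, 0 were called, with 7 at an unadjusted p under 0.05 in limma, and 6 had a positive and 10 a negative difference. Tmem38a, a counter-ion channel of the reticulum, read 2549.6, 2196.3 and 2197.4 in wild type and 1471.7, 1577.5 and 1626.5 in deficient muscle (log2 difference -0.56, limma adjusted p = 0.0722). It passed the test with Y-linked transcripts as a block (0.0299) and with the mean of its probe sets (0.0306). Reep5, which shapes reticulum membranes, stood at 609.3 ± 93.2 and 919.6 ± 90.1 (SD, n = 3 per group; limma adjusted p = 0.119). Of its 3 probe sets, 2 had a positive difference and 1 a negative one. Trdn, which encodes triadin and anchors calsequestrin to the release channel, differed by 0.02, and Hrc, a luminal calcium-binding protein gene, by -0.17, both with overlapping groups. Jph1 differed by -0.69, with all deficient mice lower (limma adjusted p = 0.143, and 0.0454 with the Y-linked block).

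Of 12 genes of the release channels and their partners, 0 rose, 1 fell and 11 did not pass, with 4 at an unadjusted p under 0.05 in limma. Stac3, an adaptor of excitation-contraction coupling, read 1704.5, 2065.8 and 1419.5 in wild type and 705.4, 889.3 and 577.9 in deficient muscle. Its log2 difference was -1.24, lower in 3 of 3 deficient mice than in any wild type mouse (limma adjusted p = 0.0198). The call was lost without wild type replicate 1 (0.093), wild type replicate 2 (0.089) or deficient replicate 1 (0.0557), and the alternatives tried gave 0.00147 to 0.465. Ryr1, the release channel itself, differed by 0.02 on the log2 scale, with overlapping groups. Cacnb1 (log2 difference -0.73, limma adjusted p = 0.0514) and Cacna1s (-0.63, 0.071) were lower in all deficient mice. Both passed with either block and without deficient replicate 3. Fkbp1b, dim in wild type at 8.6 to 18.3, was higher in all deficient mice (0.92, limma adjusted p = 0.103).

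Of 14 kinases and phosphatases that can act on the pump or on phospholamban, 0 were called, with 4 at an unadjusted p under 0.05 in limma. Camk2a, a calmodulin-dependent kinase gene, read 294, 400.7 and 298.7 in wild type and 123.7, 220 and 136.7 in deficient muscle (0.484 times the wild type mean, limma adjusted p = 0.0628), and all 6 of its probe sets had a negative difference. Ppp1r1a, which encodes an inhibitor of protein phosphatase, read 319.1, 287.4 and 446.5 in wild type and 212.9, 200.1 and 167.7 in deficient muscle (log2 difference -0.79, limma adjusted p = 0.0841). With Y-linked transcripts as a block both passed, at an adjusted p of 0.0218 for Camk2a and 0.0357 for Ppp1r1a, and Camk2a passed with the replicate block (0.0116).

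Of 7 genes of cytosolic and mitochondrial calcium handling, 0 were called, with 3 at an unadjusted p under 0.05 in limma. Slc8b1, the mitochondrial sodium-calcium exchanger gene, stood at 83.4 ± 8.51 and 151.5 ± 22.7 (limma adjusted p = 0.0724, and 0.0339 with the Y-linked block), and Vdac1, a channel of the outer mitochondrial membrane, at 6560 ± 495 and 5194.8 ± 340 (limma adjusted p = 0.186). Of 10 calcineurin and NFAT genes, which link calcium to transcription, 0 were called, with 2 at an unadjusted p under 0.05. Nfatc4 stood at 62.2 ± 10.1 and 117.9 ± 35.7 (limma adjusted p = 0.139, and 0.0341 without deficient replicate 3) and Nfatc1 at 297.6 ± 30.6 and 212.1 ± 41.9 (limma adjusted p = 0.238).

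**Figure D4:**
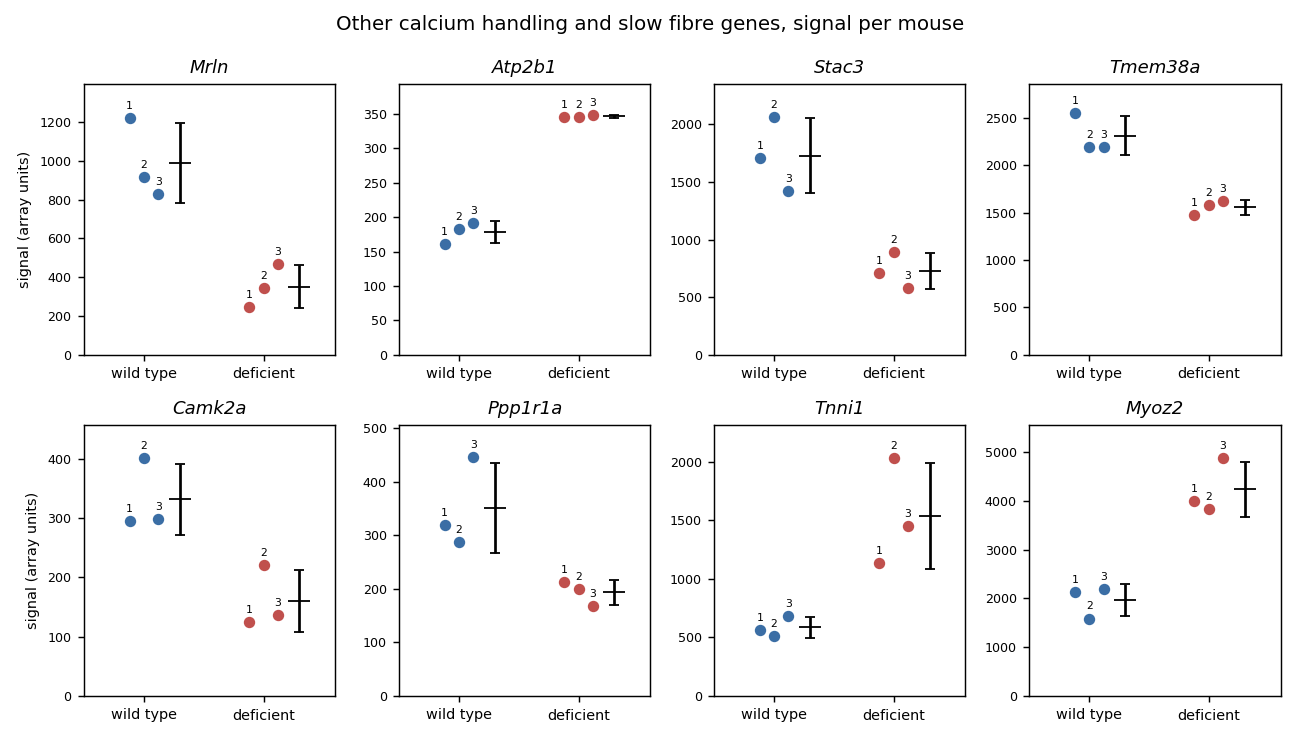
Signal (vertical axis, linear array units from 0, a different scale in each panel) of 6 other calcium handling genes and of the slow fibre genes Tnni1 and Myoz2 in the 3 wild type and 3 deficient mice, numbered by replicate; bars give the mean and SD. Mrln and Stac3 are lower and Atp2b1, Tnni1 and Myoz2 higher in all deficient mice; Tmem38a, Camk2a and Ppp1r1a also do not overlap but passed the test only with a block or, for Tmem38a, also with the mean of its probe sets.

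Because pump and calsequestrin isoforms differ between fibre types, contractile genes are given beside them. Of 8 slow fibre contractile genes, 2 rose, 0 fell and 6 did not pass, with a median log2 difference of 0.98. Tnni1, the slow troponin I gene, read 559.1, 512.2 and 681.7 in wild type and 1136.4, 2027.9 and 1449.3 in deficient muscle (limma adjusted p = 0.0199), and Myoz2, a Z-disc gene of slow fibres, rose by 1.11 on the log2 scale (limma adjusted p = 0.015). Both calls were lost without wild type replicates 1 or 2 or deficient replicate 2, at most at an adjusted p of 0.096 for Tnni1 and 0.0619 for Myoz2. Myh7, the slow myosin heavy chain gene, read 575.4, 557 and 1078 in wild type and 879.3, 1783.3 and 2720.2 in deficient muscle, with overlapping groups (limma adjusted p = 0.139). It passed with the replicate block (adjusted p = 0.0097) and with the Y-linked block (0.0116), with the same log2 difference of 1.19.

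Of 11 fast fibre contractile genes, 0 were called, with 3 at an unadjusted p under 0.05 in limma and a median log2 difference of -0.18. Myoz1 (adjusted p = 0.0888) and Actn3 (adjusted p = 0.151) had the smallest p-values, at 0.71 and 0.768 times the wild type mean. Myoz1 passed with the Y-linked block (0.0361), with the mean of its probe sets (0.0481) and without deficient replicate 3 (0.0347). The fast myosin heavy chain genes Myh1, Myh2 and Myh4 had overlapping groups and log2 differences of 0.20, 0.32 and -0.16. Their signs turned to -0.05 for Myh1 with the mean of its probe sets, to -0.11 for Myh2 when both wild type replicate 1 and replicate 2 were omitted, and to 0.01 for Myh4 under quantile normalization, while the mean of its probe sets gave -0.79 for Myh4.

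Of 7 genes on the embryonic and fetal sarcomere list, 5 rose and 2 fell, where 1.3% of all genes tested rose and 1.46% fell. Chrng, 1 of the 5, encodes an acetylcholine receptor subunit and is no sarcomere gene. It was dim, at 20.6, 1.5 and 3.6 in wild type and 58.5, 96.8 and 44.7 in deficient muscle. Myh3, the embryonic myosin heavy chain gene, read 30.3, 37.8 and 30.6 in wild type and 539.1, 1730.7 and 1199.6 in deficient muscle (limma adjusted p = 6.26e-04). Unlike Sln, whose deficient mice differed by little, Myh3 was lowest in deficient replicate 1 by a wide margin. Myh8, the perinatal myosin heavy chain gene, rose from 52.2 ± 47.4 to 1308.4 ± 693 (SD, n = 3 per group; limma adjusted p = 0.00596), and Myl4, an embryonic myosin light chain gene, from 113.1 ± 35.5 to 1825 ± 763 (limma adjusted p = 6.26e-04). Tnnt2, the cardiac troponin T gene, which developing skeletal muscle also expresses, rose from 85.4 ± 40.3 to 775.8 ± 296 (limma adjusted p = 0.0044). Of the 2 probe sets of Myl4, 1 had a positive and 1 a negative difference. The mean of its probe sets gave 1.89 on the log2 scale, against 3.80 on the brightest. Of the 3 probe sets of Tnnt2, 2 had a positive and 1 a negative difference, and the mean of its probe sets gave 3.28 against 2.99. The 2 genes that fell were Actc1, the cardiac actin gene, and Mybph.

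**Figure D5:**
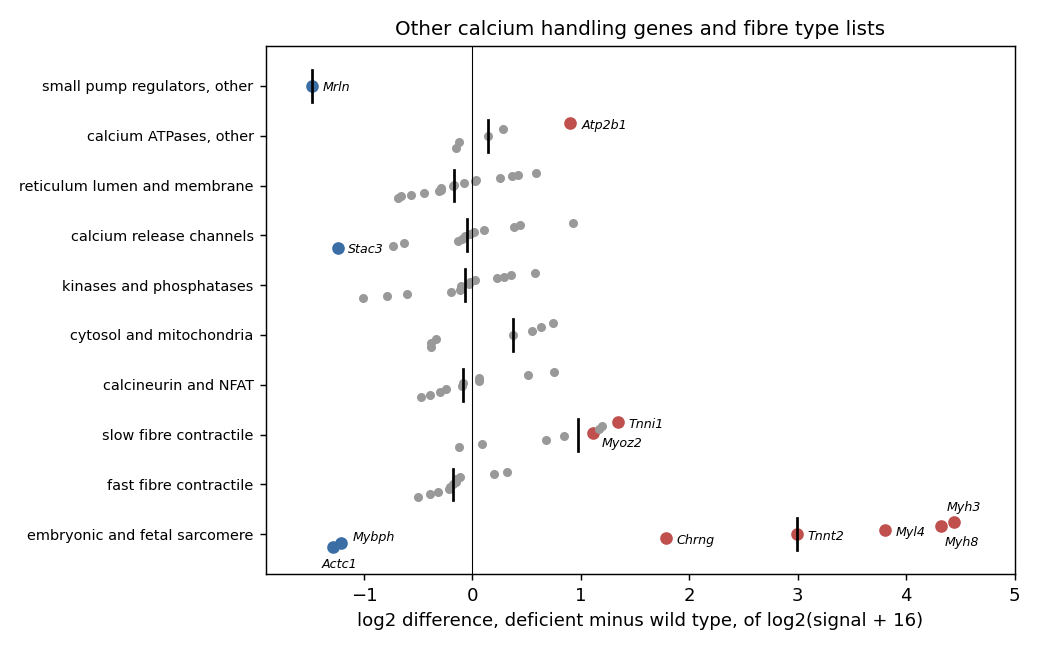
Log2 difference, deficient minus wild type, of log2(signal + 16) for each tested gene of the 7 calcium handling lists and of the slow, fast and embryonic contractile lists; vertical bars mark list medians, and coloured, named points passed limma's test at an adjusted p under 0.05 (red higher, blue lower). The called calcium handling genes are Mrln, Atp2b1 and Stac3. Of the 8 slow fibre genes, 7 lie to the right of 0, with a median of 0.98. Chrng, on the embryonic list, is no contractile gene.

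The 5 genes whose pattern over the 6 arrays was most like that of Sln were Wtip, Ywhab, Anxa7, Rab11fip5 and Eda2r, with Pearson correlations of 0.996, 0.994, 0.993, 0.993 and 0.992. A correlation does not measure the size of a change. In the same order, they stood at 1.572, 1.498, 1.828, 2.305 and 3.976 times the wild type mean in deficient muscle. Eda2r, of the TNF receptor family, read 69.6, 77.1 and 67.1 in wild type and 265.3, 290.3 and 294.4 in deficient muscle, with mice close together in both groups. For Atp2a1 the 5 most alike were Synpo2, Sncaip, Cdip1, Mon1a and Pla2g4e, at 0.992, 0.992, 0.988, 0.986 and 0.986. In deficient muscle these stood at 0.9024, 0.6632, 0.8467, 0.6983 and 0.62 times the wild type mean. Pla2g4e, a phospholipase gene, read 251.7, 215.8 and 218.8 in wild type and 61.9, 157.2 and 206.4 in deficient muscle, where deficient replicate 1 was lowest, as it was for Atp2a1. These correlations are across 6 arrays that share 2 groups, and are given as a description.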

How the data were processed

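RNA from hind limb muscle of 6 mice was extracted with TRIzol and RNeasy columns and labelled with biotin, per the labels' protocols. The authors deposited a linear signal intensity for every probe set, made by an algorithm not given in the sources used here. Trimmed of 2% of values at each end, array means lay between 99.5 and 99.9, as they would after scaling to one target. Array medians of log2(signal + 16) differed by 0.226 at most, under the 0.5 set for centring, so none was applied. The number of arrays limits the precision.

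Probe sets were named from GEO's platform annotation, with symbols updated through RefSeq (GRCm38.p6), where 34741 of 34945 single-symbol probe sets matched; 932 had several symbols, 9160 none and 64 were controls. Those below the 40th percentile of the mean log2 value, equal to a signal of 13.9, were dropped, and the brightest remaining probe set stood for each gene. Groups, from the sample titles, were tested using limma 3.58.1 (R 4.3.3) (intensity trend, two-sided, Benjamini-Hochberg over 13113 genes), called under 0.05. Every adjusted p is limma's. On 20 simulated data sets of 13113 genes with 200 changed, the test recovered 47.4% of 2-fold and 93.8% of 4-fold changes, and 6.58% of calls were false. The simulated noise was normal, independent between genes and drawn with the variances of limma's fit. These rates therefore need not hold for the real arrays, where genes can vary together.

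The members and lists were chosen with earlier results of these data known. Named were all members, up to 4 called genes of each list (or the 2 with the smallest p), the Myh genes, and the 5 genes most correlated with Sln and with Atp2a1. The uncalled marker genes this takes in (Mb, Tnnt3, Smtn, Myocd, Pdgfra and Lum) are given in their lists' sums. Others were named after their values were seen. They were Atp2a3, Trdn, Hrc, Jph1, Ryr1, Cacnb1, Cacna1s, Fkbp1b, Chrng, Actc1 and Mybph, the faint cardiomyocyte markers and the genes with no or dim probe sets. Alternatives were other scalings, filters, pseudocounts (1 and 64), the mean of probe sets, no trend, blocks for replicate number and for Y-linked transcripts (Eif2s3y above 100), and libraries left out.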

Additional observations from a re-analysis of the deposited data

How the results depend on the processing

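Over 17 alternatives, which include the mean of a gene's probe sets, all 7 member genes kept the sign of their log2 difference, with Sln between 2.98 and 4.80, Casq2 between 1.35 and 1.82, Atp2a2 between 0.58 and 1.02, Pln between 0.04 and 0.37, Casq1 between -0.55 and -0.24, Atp2a1 between -0.32 and -0.07 and Srl between -0.43 and -0.06. No trend, either block and either change of filter left each of these differences as it was, so those alternatives are no check of the sign. Single probe sets turned the sign for Pln (-0.18 on 1423359_at) and Atp2a2 (-0.04 on 1443551_at). The shift of Casq2 against Casq1 ran from 1.80 to 2.06 with each library left out, and that of Atp2a2 against Atp2a1 from 1.00 to 1.22, or 0.80 without wild type replicates 1 and 2.

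Over all genes, 362 were called, and 214 with no filter, 171 with no trend, 1160 with Y-linked transcripts as a block, 19 without wild type replicates 1 and 2, and 65 to 665 with each library left out. Of the members, 2 were called, 1 to 2 with each library left out, 1 without wild type replicates 1 and 2, and 3 with either block, where Atp2a2 joined Sln and Casq2. Of the pathway genes, 3 were called, 12 with the Y-linked block, 0 without wild type replicates 1 and 2 (9 at an unadjusted p under 0.05 in limma) and 0 to 8 with each library left out.

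The replicate number as a block called 864 genes and 6 of the pathway genes; Camk2a and Myh7 were among the named genes that passed with it and not without it. Deviations of same-numbered mice correlated at 0.15, 0.07 and 0.30, and wild type replicate 2 correlated best with deficient replicate 1 (0.20), so the numbers were not taken as pairs. With each library left out, Reep5 ran from -0.21 (without deficient replicate 3, where another of its probe sets was the brightest) to 0.68, and Tnni3 from -0.20 (without wild type replicate 3) to 0.33. Signs also turned for Myh1 (-0.05, mean of probe sets), Myh2 (-0.11, without wild type replicates 1 and 2) and Myh4 (0.01, quantile normalization). Apart from the change of probe set for Reep5, the cause was not tested. Pln lay near the dim end of the arrays, where small signals limit what can be seen.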
